A study of Mus musculus with 18 samples.

Results

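The genes described here drive cell division and DNA replication. The list of 55 cell cycle and DNA replication genes was chosen by gene symbol: a probe set counted as a member when the array annotation gave it the symbol of a listed gene and no other, and each gene was represented by its probe set with the highest mean log2 signal. Of the 55 genes 54 had such a probe set and all 54 passed the filter on dim probe sets, out of 18193 named genes on the array and 11721 named genes with a kept probe set. The gene without such a probe set, Ccnb1, is not analysed here.

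A dividing cell passes in order through G1, S phase, G2 and mitosis. D cyclins with their kinases and then cyclin E with CDK2 release the E2F factors, which switch on the genes of S phase. CDC6 and CDT1 load the MCM helicase onto replication origins in G1, and geminin, the product of Gmnn, binds CDT1 and blocks a second loading. Later in the cycle the MuvB complex with B-MYB and FOXM1 activates the genes of mitosis, among them the B cyclins, the kinetochore proteins, the spindle checkpoint and the motors of the spindle. Growing macrophages in culture divide in answer to their growth factor, and bacterial products are known to arrest them.

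The study hybridised total RNA of mouse immune cells to 18 Affymetrix expression arrays, with 6 untreated controls (0 h), 6 samples taken 1 h after a cell wall extract was given and 6 taken after 4 h. The design text speaks of knockout mice, while no label gives a genotype, a strain, an age, a cell type, a culture or an animal for any array. Each array title carries a code, and the codes fall into 3 ranges, 12 to 22, 32 to 37 and 44 to 54. Every range holds 2 arrays per time. The labels do not say what a range stands for, so a difference between ranges may be of genotype, animal, culture, day or array handling, and these cannot be told apart. Nothing says whether the arrays of a group came from separate animals or cultures, so the p-values measure the spread between these arrays, which may be technical.

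The deposited values are linear signal intensities scaled to a common trimmed mean, 500.0 on each array between the 2nd and 98th percentile. Median signals of single arrays ran from 86.2 to 108.1 over the 0 h and 1 h arrays, and from 74.7 to 87.5 over the 4 h arrays. The median log2 difference of all 25775 kept probe sets at 4 h against 0 h was -0.22, and centring each array on its median raised it by 0.25. Of the macrophage markers 14 of 14 were kept, with a mean log2 level between 13.03 and 13.54 on every array, and 9 of 12 neutrophil, 6 of 8 stroma and 5 of 6 endothelium markers were kept as well. Fewer were kept of the T cell (3 of 12), B cell (2 of 8), NK cell (1 of 8), dendritic cell (3 of 10), myeloid progenitor (2 of 9) and erythroid (2 of 8) markers. In whole samples of this kind, fewer cells of a type and less RNA per cell cannot be told apart.

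At 1 h after the extract no division gene passed the test. By limma (adjusted p under 0.05) 0 of the 54 genes rose and 0 fell, where 1.04% of all kept probe sets rose and 0.279% fell (1.32% in either direction), and 0 of 54 had an unadjusted p under 0.05, against 9.71% of all kept probe sets. The log2 differences lay between -0.35 (Cdt1, SE 0.33) and 0.41 (Cdc25c, SE 0.32), with a median of -0.05, and the lowest adjusted p was 0.680. This does not show that the levels were equal.

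By 4 h genes from most steps of the cycle had fallen, among them cyclins of G1, licensing factors, enzymes of DNA synthesis and parts of the kinetochore and spindle. Of the 54 genes 28 fell against 0 h (51.9%) and 0 rose, where 30.3% of all kept probe sets fell and 12.6% rose. The median log2 difference of the 54 was -0.54, and 45 of them lay below the median of all kept probe sets. Against the 1 h arrays 22 fell (40.7%) and 0 rose, beside 23.4% and 10.6% of all kept probe sets, with a median of -0.51. Both comparisons use the same 4 h arrays, and 20 genes fell in both. After centring each array on its median, 13 genes fell and 1 rose against 0 h, and all kept probe sets then split into 14.3% lower and 20.5% higher. In the 3 ranges taken singly, the median of the 54 genes was -0.63 in codes 12 to 22, -0.48 in 32 to 37 and -0.59 in 44 to 54.

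**Figure D1:**
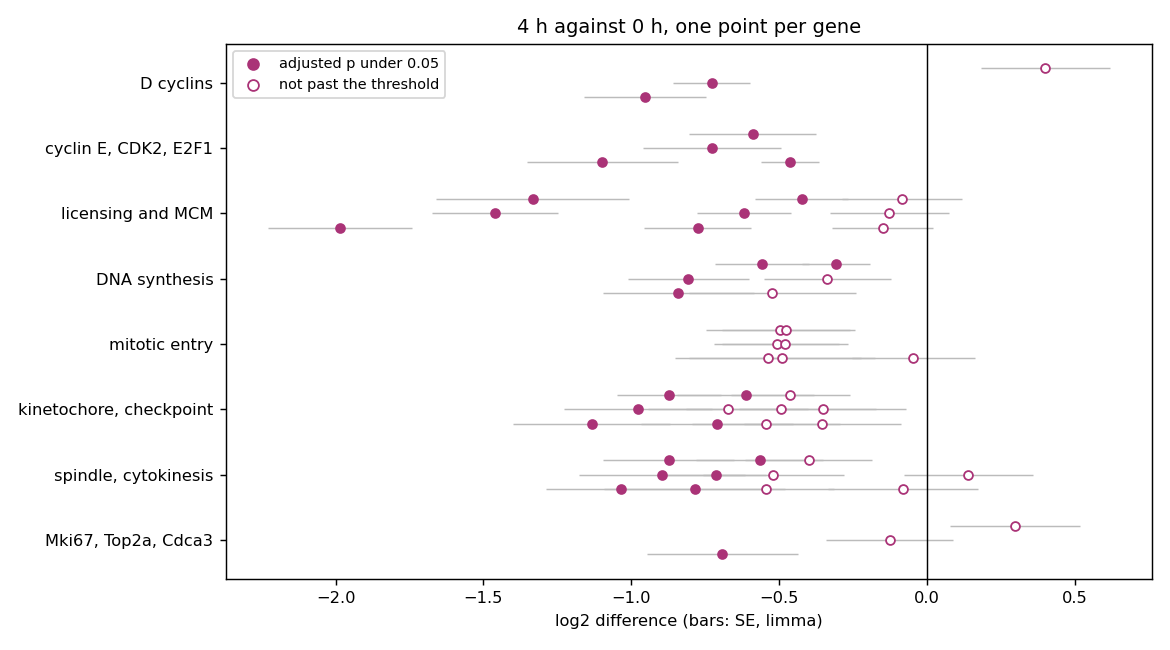
Log2 difference at 4 h against 0 h for each of the 54 genes (horizontal axis; bars are the limma SE), in rows by function, with filled points for an adjusted p under 0.05. Of the 28 filled points all lie left of 0, from -0.31 (Pcna) to -1.98 (Gmnn), and none of the 7 genes of mitotic entry is filled.

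Among the genes that act first in the cycle, 2 of the 3 D cyclins and all 4 of the cyclin E, CDK2 and E2F1 group fell at 4 h. Of all kept probe sets 30.3% fell. Ccnd1, the D cyclin that growth factors induce, had a lowest, median and highest signal of 1580.3, 2115 and 4134 at 0 h, of 1303, 2128 and 3558 at 1 h, and of 534, 1281 and 2100.3 at 4 h. The 4 h arrays were lower in every range, although the highest of them, from codes 44 to 54, overlapped the 0 h arrays of the other ranges. The log2 difference was -0.95 (SE 0.21, limma adjusted p 0.00154), 1.94-fold lower. Ccnd3 fell by 0.73 on the log2 scale (SE 0.13, adjusted p 0.000316).

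Ccnd2, another D cyclin, did not pass the test at 4 h. On the arrays of codes 12 to 22 it read 483 and 534 at 0 h, 427 and 600.5 at 1 h, and 1462 and 1173 at 4 h. In codes 32 to 37 it read 752 and 852 at 0 h and 714 and 812 at 4 h, and in codes 44 to 54 it read 2130.0 and 2509 at 0 h and 2048 and 2377 at 4 h. The 4 h arrays were thus higher in codes 12 to 22 and overlapped those of 0 h in the other ranges. Over all ranges the log2 difference was 0.40 (SE 0.22, adjusted p 0.153), and with median-centred arrays it was 0.66 (adjusted p 0.0233). Within codes 12 to 22 it was 1.34 (adjusted p 0.00149), within 32 to 37 -0.07 and within 44 to 54 -0.07, but the test of the difference between ranges gave an adjusted p of 0.118.

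Ccne2, a cyclin E that activates CDK2 at the entry into S phase, had signals of 398, 690.1 and 884 (lowest, median and highest) at 0 h, 283, 664 and 945 at 1 h and 139, 292 and 561 at 4 h. Each range was lower at 4 h, and arrays of different ranges overlapped. It fell by 1.10 on the log2 scale (SE 0.26, adjusted p 0.00268). Cdk2 itself read 537, 683 and 924 at 0 h, 663, 765 and 1011 at 1 h and 370.3, 536 and 646 at 4 h, so that all 6 arrays of 4 h lay below all 6 of 1 h. It fell by 0.46 (SE 0.10, adjusted p 0.00126), a call that was lost with median-centred arrays (-0.21, adjusted p 0.201). Ccne1 fell by 0.73 (adjusted p 0.0203), and E2f1, the activator of S phase genes, by 0.59 (adjusted p 0.0359). Both lost the call with median-centred arrays (adjusted p 0.126 and 0.274) and with quantile normalisation (0.125 and 0.169), so that Ccne2 alone of these 4 genes passed with centred arrays.

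The largest falls of the 54 genes lay in the origin licensing group. They were those of Gmnn, whose product blocks a second loading of the helicase, Cdc6 and Cdt1. Gmnn read between 3029.8 and 6370.2 at 0 h (median 4552), between 2779 and 6515 at 1 h (median 4411) and between 401 and 2331 at 4 h (median 1308). All 6 arrays of 4 h lay below all 6 of 0 h and all 6 of 1 h, and the log2 difference from 0 h was -1.98 (SE 0.24, adjusted p 1.12e-05), 3.96-fold lower. Such a separation at 4 h, below every 0 h array, was seen for 2 of the 54 genes, Gmnn and Cdt1, beside 11.3% of all kept probe sets, and above every 0 h array for 0 genes, beside 5.59%. Below every 1 h array it was seen for 3 genes, Gmnn, Cdc6 and Cdk2, beside 6.76%, and above every 1 h array for 0 genes, beside 3.63%.

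Cdt1, which geminin binds, read 5891 and 7383 at 0 h and 797 and 1591 at 4 h in codes 12 to 22, 4162 and 4748 against 2608 and 3579 in codes 32 to 37, and 3746 and 3926 against 1544 and 2602 in codes 44 to 54. The widest gap lay in codes 12 to 22, with a log2 difference of -2.53 against -0.54 and -0.93 in the other ranges. The test of this difference between ranges gave an adjusted p of 0.0997, and 0.0478 with a pseudocount of 64 or 0.0156 over the mean of all probe sets of the gene. Over all ranges Cdt1 fell by 1.33 on the log2 scale (SE 0.33, adjusted p 0.00376).

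Cdc6, the loader of the helicase, was dim: it read 88.6, 249 and 326 at 0 h (lowest, median and highest), 132, 191 and 294 at 1 h, and 27.5, 71.2 and 107 at 4 h. A single 0 h array, code 12, lay within the span of the 4 h arrays, and the other 5 lay above it. The log2 difference was -1.46 (SE 0.21, adjusted p 5.47e-05), and the offset of 16 added before the logarithm understates a change at such low signals. Among the subunits of the MCM helicase, Mcm6 fell by 0.78 (SE 0.18, adjusted p 0.00282), Mcm7 by 0.62 (adjusted p 0.00520) and Mcm5 by 0.42 (adjusted p 0.0400). With median-centred arrays Mcm7 and Mcm5 lost the call (adjusted p 0.0899 and 0.424), as they did without the range in the model (0.124 and 0.276), and Mcm5 also with the range as a random block (0.106). Mcm2, Mcm3 and Mcm4 stood at -0.13, -0.09 and -0.15 and did not pass the test, and with median-centred arrays their differences turned positive. Signals of Mcm6 were 11707 and 14225 at 0 h and 6125 and 8596 at 4 h in codes 12 to 22, the range where it was brightest.

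**Figure D2:**
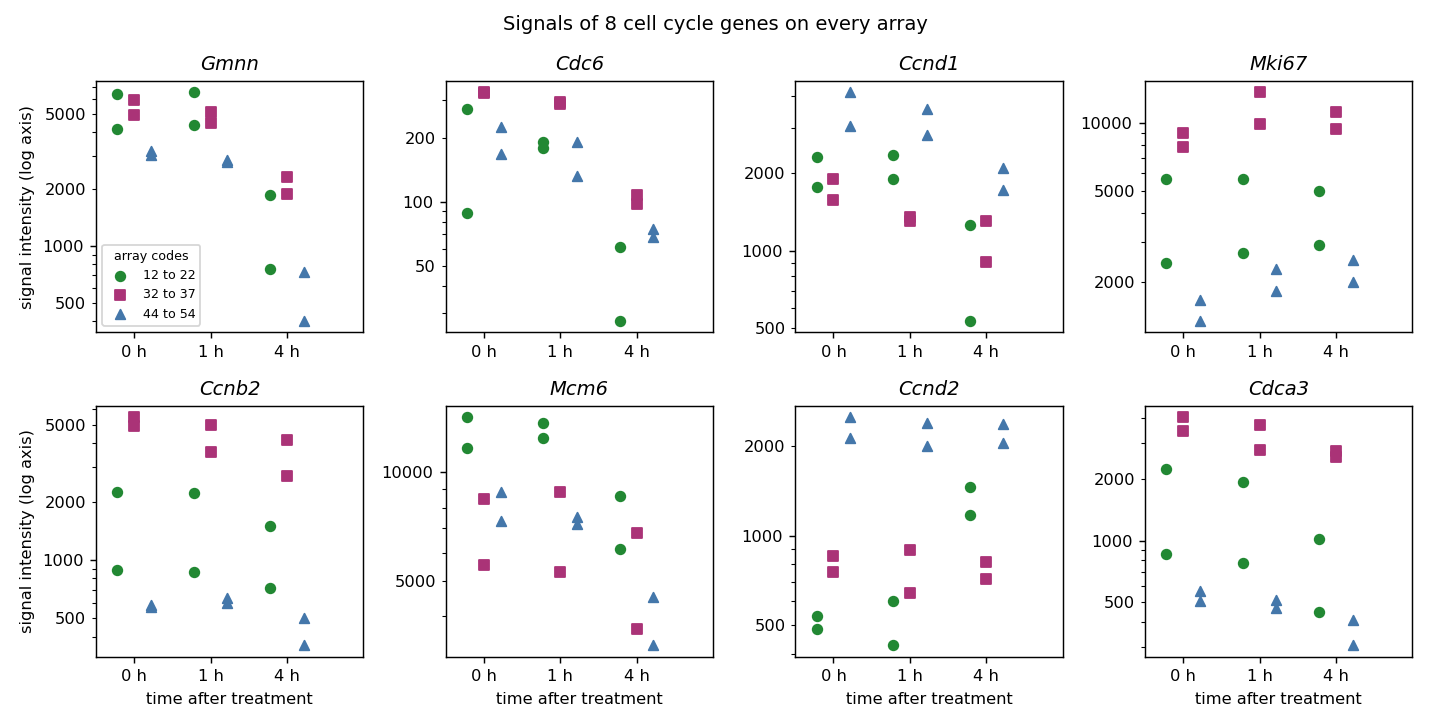
Signal intensity (log axis) of 8 genes on each of the 18 arrays by time after treatment, with symbols for the 3 ranges of array codes. Gmnn at 4 h (401 to 2331) lies below all arrays of 0 h and 1 h, Mki67 and Ccnb2 separate the ranges at every time, and Ccnd2 is above 2000 on all 6 arrays of codes 44 to 54.

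Of the 6 genes of DNA synthesis, nucleotide supply and fork control 4 fell at 4 h, beside 30.3% of all kept probe sets. With median-centred arrays only 1 of the 6, Tyms, fell, beside 14.3%. Tyms, thymidylate synthase, fell by 0.81 on the log2 scale (SE 0.21, adjusted p 0.00491). It was dim, with a median signal of 107 at 0 h and 55.5 at 4 h, where the medians of whole 4 h arrays ran from 74.7 to 87.5. Rrm2 and Rrm1, the small and large subunits of ribonucleotide reductase, fell by 0.84 (adjusted p 0.0144) and 0.56 (adjusted p 0.00989). Rrm2 had signals of 2275, 3996 and 6120.3 at 0 h and 999, 2506 and 3883 at 4 h (lowest, median and highest). The times overlapped, also within codes 12 to 22, where array 22 (4 h) read 2975 and array 12 (0 h) 2464. Both calls for the reductase were lost with median-centred arrays (adjusted p 0.0799 for Rrm2 and 0.180 for Rrm1). Pcna, the sliding clamp of the polymerase, read 19103, 24941 and 34304 at 0 h and 15168, 19825 and 25817 at 4 h. Its fall of 0.31 (SE 0.12, adjusted p 0.0418) was the smallest to pass, and leaving out any of the arrays 16, 18, 34, 35, 46 and 47 ended the call. Uhrf1, which maintains DNA methylation at the fork, and Chek1, the replication checkpoint kinase, stood at -0.52 and -0.34 and did not pass.

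Of the 32 genes of mitosis 12 fell at 4 h, with a median log2 difference of -0.53, while 14 of the 19 genes of the G1/S, licensing and DNA synthesis groups fell, with a median of -0.59. Of all kept probe sets 30.3% fell, with a median of -0.22, and the counts of single groups below stand beside the same share. None of the 7 genes of mitotic entry passed: Ccnb2, Ccna2 and Cdk1, the mitotic cyclins and their kinase, stood at -0.50, -0.48 and -0.48 (adjusted p 0.125, 0.0803 and 0.0868). Runs of codes, chosen as a block after seeing the data, were 12 to 16, 18 to 22, 32 to 34, 35 to 37 and, undivided, 44 to 54. With them 5 of the 7 fell at the same log2 differences: Ccnb2 (adjusted p 0.00333), Ccna2 (0.00640), Cdk1 (0.00885), Aurka (0.00326) and Plk1 (0.0128). Without array 12 Ccnb2 and Cdk1 passed (-0.66 and -0.59), and Cdk1 also passed without array 22.

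Of the 11 kinetochore and checkpoint genes 5 fell: Bub1b, the checkpoint kinase BUBR1, by 1.13 (SE 0.27, adjusted p 0.00287), Ttk, the kinase MPS1, by 0.98, Cenpa, the histone of the centromere, by 0.87, and Ndc80 and Nuf2 of the microtubule-binding complex by 0.71 and 0.61. Bub1b read 526 and 969 at 0 h and 129 and 446 at 4 h in codes 12 to 22, 1634 and 1976 against 1074 and 896 in codes 32 to 37, and 388 and 545 against 187 and 247 in codes 44 to 54. Within each range both 4 h arrays lay below both 0 h arrays. Without the range in the model the calls of Bub1b and Cenpa were lost (adjusted p 0.134 and 0.340).

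Of the 11 genes of the spindle and cytokinesis 6 fell, among them the motors Kif20a (-1.04, SE 0.25, adjusted p 0.00383), Kif11 (-0.90) and Kif23 (-0.71), and Aurkb, the kinase of the chromosomal passenger complex (-0.87). Cdca8, another passenger subunit, fell by 0.57 (adjusted p 0.0443), a call that ended without any of the arrays 16, 18, 34, 35, 36, 44, 46, 47, 51 and 54. Mki67 and Top2a, the usual markers of dividing cells, did not pass: Mki67 stood at 0.30 (SE 0.22, adjusted p 0.291) and Top2a at -0.13 (SE 0.22, adjusted p 0.668). With the mean over all kept probe sets of the gene Top2a fell, by 0.58 (limma adjusted p 0.0158), and it passed in no other of 34 alternatives. Mki67 read 1355, 4034 and 8994 at 0 h (lowest, median and highest), 1833, 4187 and 13558 at 1 h and 1999, 3967 and 11147 at 4 h. Over all arrays the times overlapped, while within codes 32 to 37 and within 44 to 54 every 1 h and 4 h array lay above both 0 h arrays. Cdca3, which takes part in the destruction of the mitosis inhibitor WEE1, fell by 0.69 (adjusted p 0.0388), a call that ended without any of the arrays 16, 18, 35, 37, 44, 46 and 47.

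Across 6 fits of the 4 h comparison (as described, with median-centred arrays, with quantile-normalised arrays, without the range, with the range as a random block, and with runs of codes as the block) 8 genes fell in every one. They were Ccnd1, Ccnd3, Ccne2, Cdc6, Cdt1, Gmnn, Mcm6 and Tyms, of which Cdc6 and Tyms were dim. The share of all kept probe sets that fell in every fit was not determined. Another 4 fell in 5 of the 6 fits: Cdk2, which did not pass with median-centred arrays, and Bub1b, Ttk and Kif20a, which did not pass without the range in the model, where the log2 differences are unchanged and the differences between ranges are part of the residual spread. Of the 32 genes of mitosis 5 fell with median-centred arrays (Bub1b, Ttk, Cenpa, Kif20a and Kif23), and the other calls named above for them were lost. With quantile-normalised arrays 8 fell, with the random block 3, without the range 0 and with runs of codes as the block 24. Of the 19 genes of G1/S, licensing and DNA synthesis 6, 11, 11, 8 and 14 fell in the same order of fits. Of all kept probe sets 14.3%, 21.0%, 29.0%, 23.1% and 32.4% fell in that order.

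Other values moved at 4 h beside these genes, where 12.6% of all kept probe sets rose and 30.3% fell. Of 9 neutrophil markers kept (of 12 listed) 5 rose and 1 fell at 4 h, and their mean log2 level lay between 6.56 and 8.51 at 0 h and between 7.62 and 9.54 at 4 h. The mean log2 level of the 14 macrophage markers lay between 13.04 and 13.39 at 0 h and between 13.12 and 13.54 at 4 h, with 3 higher and 3 lower. Both B cell markers kept fell, Cd79b by 1.44 and Ebf1 by 0.72, and their mean log2 level lay between 7.14 and 7.81 at 0 h and between 5.41 and 6.84 at 4 h. Of the other lists, 1 of 3 T cell markers (Cd28, -1.56), 1 of 2 myeloid progenitor markers (Cd34, -0.71) and 1 of 6 stroma markers (Col1a2, -0.51) fell, and 1 of 3 dendritic cell markers rose (Itgax, 1.66). Of the NK cell, erythroid and endothelium markers 0 passed. Their part in the lower signals of the division genes was not tested.

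The counts of further lists at 4 h stand beside 30.3% of all kept probe sets that fell and 12.6% that rose. Among regulators of the cycle outside the 55 genes, the inhibitors of cyclin-dependent kinases split at 4 h. Of 6 kept (of 7 listed), Cdkn1a, the p53 target p21, and Cdkn2b, p15, rose by 1.31 and 1.25 on the log2 scale, while Cdkn2c, Cdkn1b, Cdkn2d and Cdkn1c fell, by 1.14, 1.09, 0.56 and 0.51. Of the E2F, RB, MYB and MuvB genes 9 of 18 fell and 1 rose: E2f2, an activator, fell by 2.50 (adjusted p 7.61e-08), its partner Tfdp2 by 2.10 and the pocket protein gene Rbl2 by 1.18, and E2f3 rose by 0.72. Of 30 further replication genes 18 fell and 0 rose, led by Pole2 (-1.15), Pold1 (-0.99) and Tk1 (-0.97). Of 36 further mitosis genes 17 fell and 0 rose, led by Cdca5 (-1.37), Ncapg2 (-1.29) and Cdca2 (-1.16). Of 11 other cyclins, CDKs and their regulators 5 fell, among them the phosphatase gene Cdc25b (-1.31), and 2 rose, Cdk6 (1.23) and Cdk7 (0.42).

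Some genes of growth signalling and arrest had already moved at 1 h. Of 17 growth signal, arrest and checkpoint genes 3 rose at 1 h and 0 fell, where 1.04% of all kept probe sets rose and 0.279% fell. The 3 were Gadd45a and Gadd45b, stress sensors that slow the cycle, by 2.36 and 1.56, and Mdm2, which degrades p53, by 0.74. At 4 h 6 of the 17 had risen against 0 h, led by Gadd45b (2.83) and Gadd45a (2.20), and 3 had fallen, Chek2 (-1.62), Atm (-1.38) and Tob1 (-0.81). Myc rose by 0.72 (adjusted p 0.0148).

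The 54 genes also differed between the ranges of array codes, by up to 7.70-fold, with the widest differences among the genes of mitosis. Arrays 32 to 37 were highest: against codes 12 to 22, 36 of the 54 genes were higher (66.7%) and 1 lower, where 9.67% of all kept probe sets were higher and 8.13% lower. Arrays 44 to 54 were lowest: against codes 32 to 37, 44 genes were lower (81.5%) and 2 higher, beside 8.26% and 8.90% of all kept probe sets. Against codes 12 to 22, arrays 44 to 54 were lower in 24 genes (44.4%) and higher in 2, beside 8.69% and 10.5%. These 3 comparisons share arrays, so their counts are not independent. The mean log2 level of the 54 genes per array lay between 10.58 and 11.16 in codes 32 to 37 (SD 0.24, n = 6), between 9.07 and 10.66 in codes 12 to 22 (SD 0.59, n = 6) and between 8.81 and 9.77 in codes 44 to 54 (SD 0.34, n = 6).

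**Figure D3:**
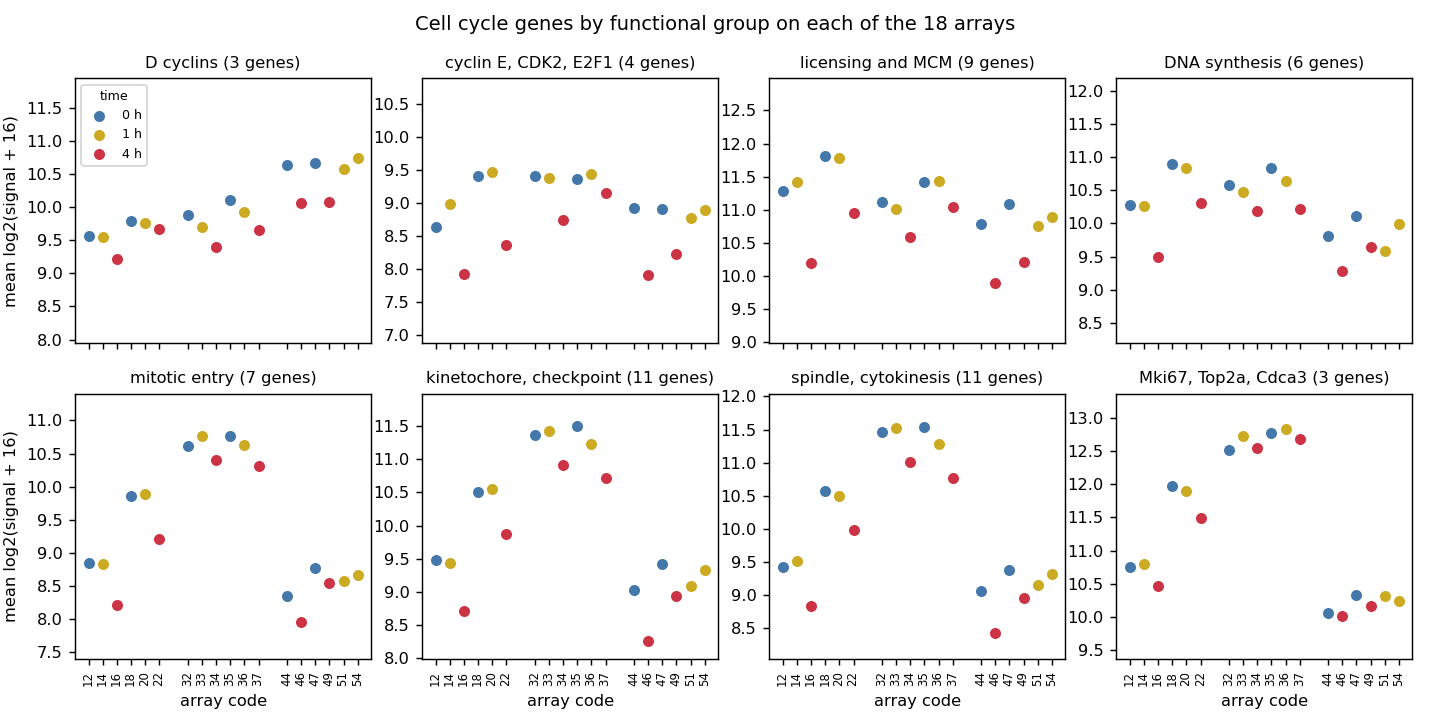
Mean log2(signal + 16) of the genes of each functional group (vertical axis) on each of the 18 arrays by code (horizontal axis), coloured by time. The 4 groups of the lower row, the genes of mitosis, are on average highest in codes 32 to 37 and lowest in 44 to 54 at every time, while the D cyclins are highest in codes 44 to 54.

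All 32 genes of mitosis were lower in codes 44 to 54 than in 32 to 37, with a median log2 difference of -2.20 (4.61-fold lower) and a range from -2.94 (Ccnb2) to -0.70 (Foxm1). The same contrast in the 19 genes of G1/S, licensing and DNA synthesis gave 11 lower and a median of -0.65 (1.57-fold lower). Between codes 32 to 37 and 12 to 22, 30 of the 32 genes of mitosis were higher, with a median of 1.52 (2.86-fold), while 5 of the 19 were higher and 1 lower, with a median of -0.16. The 2 genes of mitosis that did not pass there were Foxm1 (0.52, adjusted p 0.0936) and Mad2l1 (0.20, adjusted p 0.534). All 6 arrays of codes 44 to 54 lay below all 6 of 32 to 37 for 34 of the 54 genes, beside 2.82% of all kept probe sets, and above them for 1 gene, Ccnd2, beside 2.82%. All 6 arrays of codes 32 to 37 lay above those of 12 to 22 for 22 genes, beside 2.73%, and below them for 0, beside 2.08%. Codes 44 to 54 lay above 12 to 22 on all arrays for 1 gene, Ccnd2, beside 4.42%, and below for 2, Ccnb2 and Mad2l1, beside 3.19%. The median over the 54 genes for codes 44 to 54 against 32 to 37 was -1.86 at 0 h, -1.77 at 1 h and -1.81 at 4 h.

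**Figure D4:**
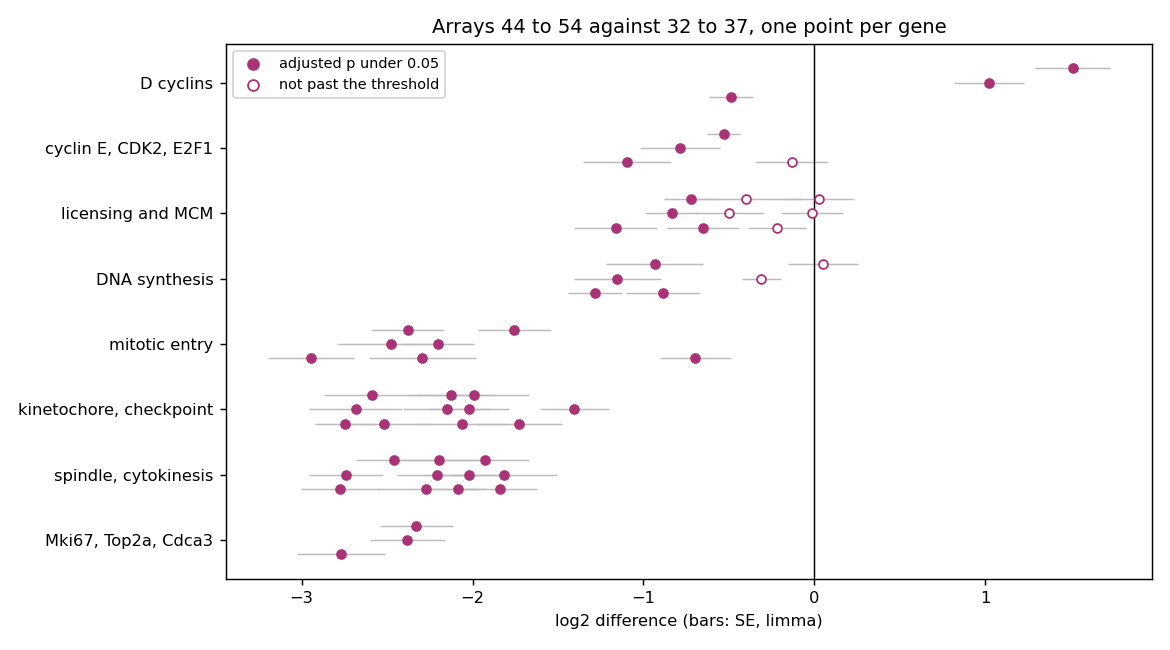
Log2 difference of arrays 44 to 54 against 32 to 37 for each of the 54 genes (horizontal axis; bars are the limma SE), in rows by function, with filled points for an adjusted p under 0.05. The 32 genes of the 4 lower rows are all filled and lie between -2.94 and -0.70, and Ccnd1 and Ccnd2 in the top row lie to the right of 0.

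Ccnb2, the B-type cyclin that activates CDK1 at the entry into mitosis, showed the widest gap. It read 2720.4, 4523 and 5463 in codes 32 to 37 (lowest, median and highest), 714, 1191 and 2243 in codes 12 to 22 and 361, 574 and 633 in codes 44 to 54. The 3 ranges did not overlap, and the log2 difference of codes 44 to 54 from 32 to 37 was -2.94 (SE 0.25, adjusted p 2.94e-06), 7.70-fold lower. Cdk1 itself read 3752, 4409 and 5066 in codes 32 to 37, 1031, 1747 and 3018 in 12 to 22 and 798, 1336 and 1814 in 44 to 54, a log2 difference of -1.75 (SE 0.22, adjusted p 4.97e-05). Plk1 and Aurka, the kinases that start mitosis, were lower by 4.90-fold and 4.60-fold.

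At the kinetochore Cenpa read 2736, 4302 and 5669 in codes 32 to 37, 582, 1209 and 2037 in 12 to 22 and 369, 663 and 751 in 44 to 54. Codes 32 to 37 stood clear of the other ranges, and the log2 difference of 44 to 54 from them was -2.75 (SE 0.18, adjusted p 5.80e-07). Cenpf was 6.43-fold lower and Bub1 stood at a log2 difference of -2.59, and Cdc20 and Ube2c, which run the anaphase-promoting complex, by 3.97-fold and 5.72-fold. On the spindle Nusap1, which bundles microtubules, read 3036, 4252 and 5051 in codes 32 to 37, 759.9, 1615 and 2708 in 12 to 22 and 399, 585 and 796 in 44 to 54. The log2 difference of 44 to 54 from 32 to 37 was -2.77 (SE 0.23, adjusted p 2.48e-06), and Birc5, survivin, was lower by 6.69-fold. Mki67 read 7843, 9643 and 13558 in codes 32 to 37, 2422, 3967 and 5683 in 12 to 22 and 1355, 1916 and 2493 in 44 to 54, a difference of -2.38 (SE 0.22, adjusted p 4.80e-06). Top2a, the topoisomerase that untangles chromosomes, was lower by 5.02-fold, and Cdca3 by 6.82-fold. With the mean over all kept probe sets of the gene the gap of Cdca3 was smaller, at a log2 difference of -1.15.

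The promoters of the 4 genes with the widest gap between codes 44 to 54 and 32 to 37 are shown because genes of mitosis are known to share a promoter plan, paired CCAAT boxes upstream and a TTTGAA element at the start of transcription. The 150 bases before the annotated start are from the RefSeq promoter table of the build GRCm38.p6, 5′ to 3′, with CCAAT or its reverse complement ATTGG in capitals:
Ccnb2 promoter, chr9:70421555-70421704, minus strand: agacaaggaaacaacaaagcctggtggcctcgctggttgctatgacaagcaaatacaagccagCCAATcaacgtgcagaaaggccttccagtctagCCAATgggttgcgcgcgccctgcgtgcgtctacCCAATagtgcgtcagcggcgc
Nusap1 promoter, chr2:119618148-119618297, plus strand: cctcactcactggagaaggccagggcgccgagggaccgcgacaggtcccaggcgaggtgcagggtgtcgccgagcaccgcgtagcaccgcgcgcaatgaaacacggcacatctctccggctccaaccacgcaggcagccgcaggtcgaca
Cdca3 promoter, chr6:124830026-124830175, plus strand: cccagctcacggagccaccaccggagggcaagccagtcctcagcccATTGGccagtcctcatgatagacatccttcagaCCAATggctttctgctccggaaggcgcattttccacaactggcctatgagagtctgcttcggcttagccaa
Cenpa promoter, chr5:30666736-30666885, plus strand: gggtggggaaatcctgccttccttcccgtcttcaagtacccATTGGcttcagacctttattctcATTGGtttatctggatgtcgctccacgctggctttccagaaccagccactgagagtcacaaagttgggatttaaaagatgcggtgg

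Ccnb2 holds 3 CCAAT matches in this stretch, Cdca3 and Cenpa 2 each, and these letters are not in the Nusap1 stretch. In 3 of these genes a TTTGAA match lies just past the annotated start, with the first base of TTTGAA at position 5 after the start in Ccnb2, 31 in Cdca3 and 17 in Cenpa. The window of Ccnb2 holds 2 TTTGAA matches, and the other one lies upstream of the start and is not shown. The matches past the start are in capitals:
Ccnb2 site, chr9:70421533-70421562, minus strand: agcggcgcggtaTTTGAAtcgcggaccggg
Cdca3 site, chr6:124830194-124830223, plus strand: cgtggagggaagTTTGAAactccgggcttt
Cenpa site, chr5:30666890-30666919, plus strand: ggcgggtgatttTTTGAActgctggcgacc

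In windows of 300 bases, 250 before the start and 50 after, 44 of the 55 genes matched the table, 4 of them with 2 windows, 48 windows in all. On either strand TTTGAA stood in 21 of the 28 windows of mitosis genes (75.0%), in 1 of the 18 windows of the G1/S, licensing and DNA synthesis genes (5.56%), that of Mcm2, and in 17.9% of all 32851 windows of the table. At least 2 CCAAT matches stood in 15 of the 28 (53.6%), against 11.7% of all windows. The E2F-type sequences TTTCGCGC, TTTGGCGC or TTTCCCGC stood in 8 of the 18 windows (44.4%), among them 6 of the 8 windows of licensing and MCM genes, in 1 of the 28 (3.57%), that of Cdk1, and in 1.84% of all windows. A match is a description of the letters and not a bound site. Among the measured genes of mitosis with a window, the 20 with TTTGAA had a median log2 difference of -2.20 between codes 44 to 54 and 32 to 37, and the 6 without it, among them Nusap1, Birc5 and Bub1, one of -2.35.

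Among the genes that act before S phase 2 ran the other way. Ccnd2 read 2006, 2254 and 2509 in codes 44 to 54 (lowest, median and highest), 639, 782 and 895 in 32 to 37 and 427, 567 and 1462 in 12 to 22. All 6 arrays of codes 44 to 54 lay above all others, with a log2 difference of 1.51 from 32 to 37 (SE 0.22, adjusted p 0.000200) and of 1.66 from 12 to 22. Ccnd1 read 1722, 2942 and 4134 in codes 44 to 54, 904, 1328 and 1905 in 32 to 37 and 534, 1834 and 2362 in 12 to 22, with some overlap, and was higher by 1.02 (SE 0.21, adjusted p 0.00264) and 0.86. Ccnd1 and Ccnd2 were the only genes of the 54 higher in codes 44 to 54 than in either other range by this fit.

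Mcm6 read 6125, 12072 and 14225 in codes 12 to 22, 3698, 6195 and 8844 in 32 to 37 and 3328, 7288 and 8810.2 in 44 to 54. It was the gene of the 54 that was lower in codes 32 to 37 than in 12 to 22 (-0.79, SE 0.18, adjusted p 0.00729), and between codes 44 to 54 and 32 to 37 it stood at -0.01 (adjusted p 0.973). Mcm2, E2f1 and Tyms likewise stood near 0 there (0.03, -0.13 and 0.05). Mcm5 and Mcm7 were lower in codes 44 to 54 than in 12 to 22 by 1.00 and 1.02 (adjusted p 0.000327 and 0.000282). Gmnn was lower by 1.16 than in codes 32 to 37 (adjusted p 0.00363) and Rrm1 by 1.28 (adjusted p 5.03e-05).

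Arrays within codes 12 to 22 were not alike. The codes run through the times in order, 12, 14 and 16 and then 18, 20 and 22, and in each pair of equal time the first run was lower in the mean of the kinetochore genes. The mean log2 level of the 11 kinetochore and checkpoint genes was 9.48, 9.43 and 8.70 on arrays 12, 14 and 16 and 10.51, 10.56 and 9.87 on arrays 18, 20 and 22. That of the 3 D cyclins was 9.57, 9.54 and 9.22 against 9.79, 9.76 and 9.67. Without arrays 12, 14 and 16, a choice made after seeing the data, 43 genes were lower and 1 higher in codes 44 to 54 than in 12 to 22, in place of 24 and 2. Of all kept probe sets 5.86% were then lower and 7.98% higher. With runs of codes as the block, also chosen after seeing the data, 40 genes fell at 4 h against 0 h and 35 against 1 h. Of all kept probe sets 32.4% and 25.2% then fell.

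Markers of several cell types also differed between the ranges, in both directions. Of all kept probe sets 10.5% were higher and 8.69% lower in codes 44 to 54 than in 12 to 22. Against 32 to 37 the shares were 8.90% and 8.26%. Of 8 stroma markers 6 were kept, and their mean log2 level lay between 6.90 and 7.48 in codes 12 to 22, between 8.45 and 9.16 in 32 to 37 and between 10.04 and 10.51 in 44 to 54. All 6 were higher in codes 44 to 54 than in 12 to 22, led by Col1a2 (4.06) and Col3a1 (3.90), and 5 of 6 were higher than in 32 to 37. The mean log2 level of the neutrophil markers went the other way. It lay between 8.51 and 9.54 in codes 12 to 22 and between 7.36 and 8.75 in 32 to 37. In 44 to 54 it lay between 6.56 and 8.08. Of the 9 kept, 7 were lower in 44 to 54 than in 12 to 22, and Csf3r (0.15) and Ltf (-0.67) did not pass. Against 32 to 37, S100a8, S100a9, Camp and Ngp were lower in 44 to 54, Mmp9 was higher (0.94), and the others did not pass. The 5 endothelium markers kept lay between 5.85 and 6.77 in codes 12 to 22, 6.62 and 7.14 in 32 to 37, and 7.05 and 7.91 in 44 to 54. Of them 4 were higher in codes 44 to 54 than in 12 to 22, led by Emcn (2.34), and 2 were higher than in 32 to 37. The mean of the 14 macrophage markers lay between 13.03 and 13.23, 13.14 and 13.42, and 13.22 and 13.54 in the same order. Of them Marco (2.23), Fcgr1 (0.80) and Cd14 (0.62) were higher in 32 to 37 than in 12 to 22, and Cd68 was lower (-0.38). Codes 44 to 54 were lower than 32 to 37 in Marco (-1.90) and Cd14 (-0.69), and higher in C1qa (0.77), Mrc1 (0.68) and Adgre1 (0.50). The B cell markers kept split: in codes 44 to 54 Cd79b was lower than in 12 to 22 (-1.57) and Ebf1 higher (1.76). The T cell marker Cd28 was also higher there (0.91). The dendritic cell marker Ccr7 was higher in 32 to 37 than in 12 to 22 (1.47) and lower in 44 to 54 than in 32 to 37 (-1.66). The mitosis genes were highest in the middle range of stroma level. The part of these cells in the differences between ranges was not tested.

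Other genes of the cycle also differed between these ranges. Between codes 44 to 54 and 32 to 37, 8.26% of all kept probe sets were lower and 8.90% higher. Of 36 further mitosis genes 35 were lower in codes 44 to 54 than in 32 to 37 and 0 higher, led by Nek2 (-2.66), Aspm (-2.60) and Cdkn3 (-2.58), and the exception was Pttg1 (-0.29, adjusted p 0.159). Of 30 further replication genes 18 were lower and 0 higher, led by Tk1 (-1.66), Asf1b (-1.64) and Mcm10 (-1.59). Among the E2F and MuvB genes 6 of 18 were lower, among them E2f2 (-1.96), E2f8 (-1.31) and E2f7 (-1.29), and 2 were higher, E2f3 (0.51) and Rb1 (0.35). Of the 6 inhibitors of cyclin-dependent kinases 4 were lower, led by Cdkn2c (-2.04) and Cdkn2d (-1.89), and Cdkn2b was higher (0.93). Among growth genes Gas1, Csf1, the macrophage growth factor, and Myc were higher in codes 44 to 54 by 1.50, 1.21 and 1.13.

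The change over time did not pass a test of difference between ranges for any of the 54 genes by the limma F test, where 0.776% of all kept probe sets passed. The lowest adjusted p was 0.0997 (Cdt1), and 2 of 54 genes had an unadjusted p under 0.05 (Cdt1 and Ccnd2), beside 9.81% of all kept probe sets. The mean log2 level of the 54 genes went from 10.22 at 0 h to 9.54 at 4 h in codes 12 to 22, from 11.08 to 10.59 in 32 to 37 and from 9.62 to 9.04 in 44 to 54. The members have 59 other kept probe sets, and none of them passed the test in the direction opposite to the probe set that represents its gene.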

How the data were processed

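Total RNA of 18 samples was measured on Affymetrix 3' expression arrays, and the authors deposited 1 table of linear signal intensities with 1 value per probe set and array. MAS5 and GCOS are named, with no version or setting, in the submitters' processing notes. The deposited intensities carry no detection calls and no depth, so the number of arrays limits the precision. All columns of samples were used. Times came from the titles, and replicates were numbered in accession order, which pairs nothing. The table holds 45101 probe sets, 64 of them controls. A single symbol is annotated for 34945 (34741 matched to GRCm38.p6 gene names by identifier), several for 932 and none for 9160.

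Values were taken as log2(signal + 16) and not normalized further. Fold changes are on that scale, which understates changes of dim genes. The filter asked for a signal over the array's median on 4 or more of the 18 arrays and left 25775 probe sets (57.2%). In R 4.3.3, limma 3.58.1 (lmFit, eBayes) fitted time plus code range over all 18 arrays, and a fit of 9 means (time by range) gave the F test of interaction and the values within ranges and times. P-values were adjusted by Benjamini-Hochberg over all kept probe sets, with a threshold of 0.05 for "rose", "fell", "higher" and "lower". The fit was tested on simulated data. The genes, the gene lists, the markers and the motifs were chosen with earlier results of these data known. Signals on single arrays are given for Mki67, Top2a and, in each functional group, the called gene with the largest change at 1 h, at 4 h and between codes 44 to 54 and 32 to 37, or the brightest gene where none was called, and for Cdc6 and Cdt1, added after their values were seen. For other lists up to 4 called genes with the largest change are named. Alternatives changed the pseudocount, the filter, the scaling, the probe sets of a gene, the block and the arrays included.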

Additional observations from a re-analysis of the deposited data

Results flagged for a closer look

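Among 126 groups of 6 arrays tested for a value that stands apart, 1 was found. For groups of like arrays chance gives about 1 in 20. These groups each mix ranges or times and share arrays, so that rate does not hold for them. The group found was Kif20a in codes 44 to 54, which holds arrays of every time. Array 46, a 4 h array, was lowest with a log2 value of 7.60, and the nearest of the others was at 8.50. The gap made up 0.703 of the range of the 6 arrays, above the critical value of 0.625.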

How the results depend on the processing

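The count of genes that changed at 1 h was 0 under each alternative. At 4 h against 0 h and 1 h, the 28 and 22 genes became 14 and 12 with median-centred arrays, 1 of them a rise in each. There 13 and 11 fell, beside 14.3% and 11.1% of all kept probe sets. Without the code range in the model 10 and 6 of the 54 fell, beside 23.1% and 16.7%. With the range as a random block (correlation 0.260) 16 and 13 fell, beside 29.0% and 22.1%. Within codes 12 to 22 they were 7 and 8, within 32 to 37 2 and 2, and within 44 to 54 5 and 3, each from 2 arrays per time. Without codes 44 to 54 the counts were 14 and 9, beside 18.5% and 14.1% of all kept probe sets lower. Without 32 to 37 the first was 14, beside 26.2%. Runs of codes as the block were chosen after seeing the data. The ranges were also compared within 0 h, 1 h and 4 h, in that order. There the 37 genes that differed between codes 32 to 37 and 12 to 22 became 4, 3 and 11, all higher. Of all kept probe sets 1.52%, 2.67% and 4.09% were higher. The 26 between 44 to 54 and 12 to 22 became 1, 2 and 1. Of these 0, 1 and 1 were lower, beside 0.706%, 1.06% and 1.32%, and 1, 1 and 0 higher, beside 2.80%, 3.49% and 4.32%. The 46 between 44 to 54 and 32 to 37 became 26, 25 and 27. Of these 25, 24 and 26 were lower, beside 1.59%, 1.34% and 1.47%. Without arrays 12, 14 and 16, also chosen after seeing the data, the 26 became 44. The interaction called 1 gene, Cdt1, with a pseudocount of 64 and with the mean over a gene's probe sets. Comparisons within a range or a time set 2 arrays against 2. Their spread came from the fit of 9 means over all 18 arrays. The causes of the differences between alternatives were not tested. Leaving out each array in turn gave 0 to 0 genes at 1 h, 19 to 36 and 16 to 25 at 4 h, and 34 to 38, 21 to 31 and 42 to 46 for the ranges in the order above. Of genes with signals given, Nusap1 also passed at 4 h without array 12 or 22, and Top2a with the mean over its probe sets. Cdca8, Pcna and Cdca3 lost their call at 4 h in 20, 18 and 17 of 34 alternatives. No called value changed its sign. The labels give no replicate numbers that pair arrays, and runs of codes were the nearest grouping that could serve as a block: with them 40 and 35 genes fell at 4 h. The limits are 6 arrays per group, unlabelled code ranges and signals without detection calls.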
